A study of Canis lupus familiaris with 18 samples.

Results

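The cartilage collagens are collagen chains of hyaline cartilage and its calcifying zone, and they were followed across 18 canine primary osteosarcomas. They were taken as every array probe set that the platform annotation assigns to exactly 1 of 7 gene symbols, COL2A1, COL9A1, COL9A2, COL9A3, COL10A1, COL11A1 and COL11A2. Of 42924 probe sets other than controls, 7 met this rule. They cover 4 of the 15115 genes that have such a single-symbol probe set, with 2 probe sets each for COL2A1, COL10A1 and COL11A2 and 1 for COL9A1. The annotation used lists no probe set for COL9A2, COL9A3 or COL11A1, which were not analysed here.

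The tumours, malignant bone tumours of dogs, were snap frozen when removed at operation, biopsied or sampled after death, and total RNA of each was put on 1 Affymetrix canine array. For 9 tumours the serum concentration of alkaline phosphatase (ALP), an enzyme that bone-forming cells and liver shed into blood, was normal, and for 9 it was increased. The labels name no treatment, age, breed or genotype that separates or unites the groups, and the design has no normal bone or cartilage. The labels give 1 sample per tumour without naming a dog, so p-values measure the spread between these samples.

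Type II collagen, made of COL2A1 chains, is the main fibril of cartilage and is made by chondrocytes under the transcription factor SOX9. Type XI collagen, which includes the COL11A2 chain, lies within these fibrils and limits their width, and type IX collagen, which includes COL9A1, decorates their surface. Type X collagen, made of COL10A1 chains, is made by hypertrophic chondrocytes where cartilage turns to bone. Osteosarcomas can hold areas of cartilage matrix beside bone matrix, and a chondroblastic form is described in dogs as in people.

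Levels are given as log2 of the signal plus 16, an offset that damps the noise of dim probe sets, and an increase of 1 is a doubling for bright probe sets. As deposited, in log2 units, the arrays had medians from 6.25 to 6.31. Of the 7 probe sets, 3 had a mean above the filter of 6.15 that kept 25754 probe sets for the group test, namely 1 each of COL2A1, COL9A1 and COL11A2. Both COL10A1 probe sets and the other probe set of COL2A1 and of COL11A2 lay below it. The osteoblast markers expected of this tumour type were measured for 8 of 10 genes, and their mean level ranged from 7.14 to 11.13 across tumours. Increased ALP replicates 3 and 6 stood apart in the BioB spike-in control, at 10.34 and 9.89 against 8.33 to 9.21 on the other 16 arrays. Their upper quartiles were the lowest, at 8.08 and 8.01 against 8.15 or more on the other arrays. So was their SD over probe sets, at 2.27 and 2.26 against 2.33 or more. Their actin 3' signal exceeded that of the middle of the transcript the most, by 2.17 and 2.12 in log2 units. Increased ALP replicate 6 was also alone at the top of its group at 3.92% of probe sets, against 0.238% to 1.94% on the other 17 arrays.

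COL2A1 had the widest spread of the 7 probe sets, at the brighter of its pair. It ranged from 5.30 in normal ALP replicate 4 to 11.26 in normal ALP replicate 3, a 105-fold range of deposited signal, with a mean of 7.90 ± 2.08 (SD, n = 18). The low end of this range lay below the filter value of 6.15 and may hold background, which makes the fold range uncertain. Its SD was above that of 99.8% of the probe sets tested and of 99.54% of the 2585 probe sets with a mean within 0.25 of its own. In bulk tissue, fewer cells that make the transcript and less transcript per cell cannot be told apart.

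The tumours fell into 2 separate clusters of COL2A1 level. In 7 tumours COL2A1 lay between 5.30 and 6.03, and in the other 11 between 8.18 and 11.26, with no tumour in the 2.15 between. The tumours of the lower cluster were normal ALP replicates 1, 4, 8 and 9, at 5.68, 5.30, 5.62 and 5.66, and increased ALP replicates 2, 7 and 9, at 5.39, 5.64 and 6.03. All of these levels lay below the filter value of 6.15. As deposited they ran from 4.54 to 5.62, below the median of every array. The upper cluster held 5 normal and 6 increased ALP tumours, so both groups spanned the gap. At its top were increased ALP replicates 3, 5 and 6, at 9.91, 10.70 and 10.90, and normal ALP replicate 3. On the deposited values the gap was 2.48, a 5.57-fold step whose lower side may hold background. Only 6 of the 25754 tested probe sets (0.0233%) had so wide a gap with at least 4 tumours on each side, and the other named ones were DLA88, a polymorphic class I histocompatibility gene, with 5.77, and EIF2S3, a translation initiation factor subunit, with 3.64. The widest such gaps of COL11A2, COL9A1 and the brighter COL10A1 probe set were 0.44, 0.31 and 0.18. At least as wide a gap was found at 5.99%, 13.6% and 40.2% of tested probe sets.

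**Figure D1:**
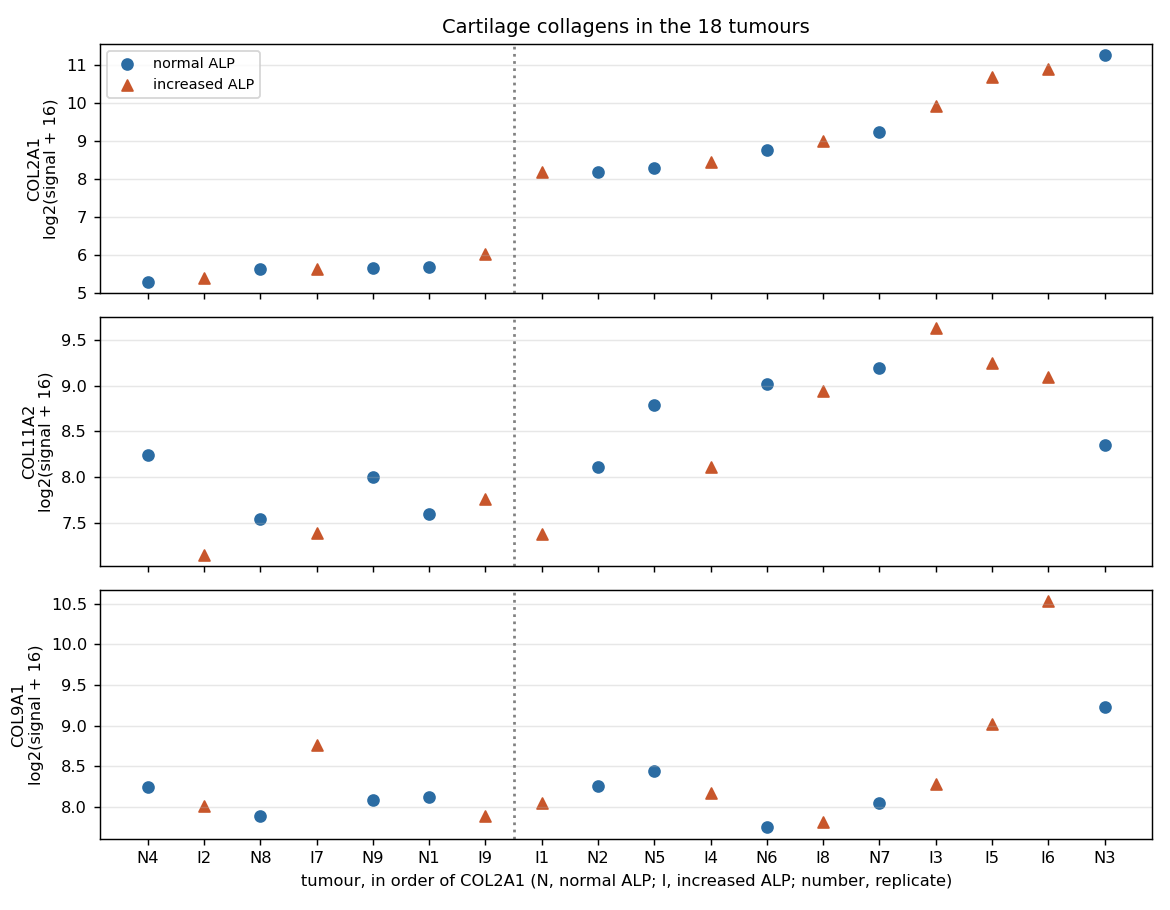
Levels of COL2A1 (top), COL11A2 (middle) and COL9A1 (bottom) as log2(signal + 16), 1 point per tumour, in order of COL2A1 level. The dotted line marks the COL2A1 gap between 6.03 and 8.18, and the y axes differ in range.

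The other COL2A1 probe set hardly varied. It lay between 4.66 and 4.83 in all 18 tumours, with an SD of 0.05 and a 1.36-fold range of deposited signal, below the filter. It did not show the gap, so the COL2A1 pattern rests on 1 probe set. Probe sets ending in _s_at, which include both of COL2A1, that of COL9A1 and the brighter one of COL11A2, can share probes with other transcripts.

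COL11A2, the minor fibril chain, had a mean level of 8.31 ± 0.76 (SD, n = 18) at its brighter probe set. It ranged from 7.15 in increased ALP replicate 2 to 9.63 in increased ALP replicate 3, a 6.17-fold range, and its SD was above that of 90.9% of tested probe sets. Its low tumours were largely those low in COL2A1: 6 of the 7 tumours below the COL2A1 gap were among the 7 with the lowest COL11A2. Below the gap COL11A2 was between 7.15 and 8.24, with a median of 7.60. Above it the lowest, median and highest values were 7.38, 8.94 and 9.63, so the ranges overlapped. These clusters were read off the data, so no test is given of the values between them. The other COL11A2 probe set lay between 5.14 and 5.62, below the filter, with an SD of 0.10.

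COL9A1, the fibril surface chain, was narrow in most tumours and high in a few. Its mean level was 8.36 ± 0.68 (SD, n = 18), and its SD was above that of 87.6% of tested probe sets. It was highest in increased ALP replicate 6, at 10.54, followed by normal ALP replicate 3 at 9.23, increased ALP replicate 5 at 9.02 and increased ALP replicate 7 at 8.76. The first 3 of these were also the 3 tumours of highest COL2A1, while the last lay below the COL2A1 gap, at 5.64. The 14 other tumours lay between 7.74 and 8.44. Across the COL2A1 gap COL9A1 did not separate, at 7.88 to 8.76 below it and 7.74 to 10.54 above it.

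COL10A1, the collagen of hypertrophic cartilage, was dim at both probe sets. The brighter of them had a mean level of 5.86 ± 0.46 (SD, n = 18), from 4.91 in increased ALP replicate 6 to 6.65 in normal ALP replicate 6. The dimmer lay between 4.37 and 4.48 in 17 tumours and at 5.88 in increased ALP replicate 6, where the deposited value was 5.42 against 2.21 to 2.67 elsewhere. The tumour highest at the dimmer probe set was thus the lowest at the brighter one. Across 18 tumours their r was −0.53 (unadjusted permutation p = 0.0199, adjusted p = 0.0598 over the 3 genes with a pair of probe sets; rho −0.29, permutation p = 0.235). Without increased ALP replicate 6 it was −0.08, so the relation rested on that tumour. The gene identifier that the platform gives COL10A1 was not found in the RefSeq gene table, where the gene of that symbol overlaps NT5DC1.

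**Figure D2:**
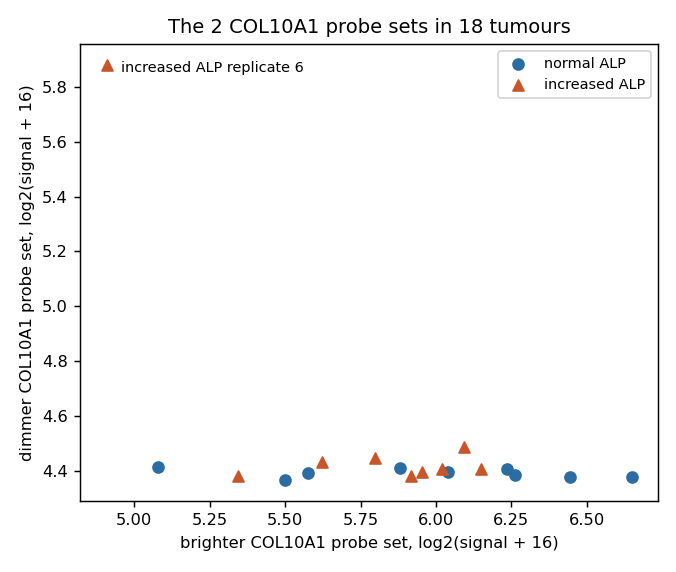
Levels of the COL10A1 probe sets as log2(signal + 16) against each other, 1 point per tumour. Increased ALP replicate 6 sits at 4.91 on the x axis and 5.88 on the y axis, and the other 17 tumours lie between 4.37 and 4.48 on the y axis.

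No cartilage collagen gave a called difference between the serum ALP groups. Of 25754 probe sets tested with limma, 0% passed an adjusted p of 0.05, the smallest adjusted p being 0.608, and 6.14% (1582, of which 494 were higher and 1088 lower with increased ALP) had an unadjusted p under 0.05. Among the 3 cartilage collagen probe sets tested, 0 were called and 0 had an unadjusted p under 0.05. The values of the groups overlapped at all 7 probe sets. A positive difference means a higher level with increased ALP, in log2 units.

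For COL2A1, the lowest, median and highest levels were 5.30, 8.19 and 11.26 with normal ALP (7.56 ± 2.09, SD, n = 9) and 5.39, 8.45 and 10.90 with increased ALP (8.25 ± 2.13, SD, n = 9). Each group held very low and very high tumours, and 6 of 9 increased ALP tumours lay above the normal mean. The difference was 0.69 ± 0.92 (SE), with limma's adjusted p at 0.918 and 0.491 as the exact permutation p (two-sided). Its 95% interval ran from −1.24 to 2.62, that is from 0.424 to 6.15 times the normal ALP level, so these 9 tumours a group leave a wide range of differences possible.

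For COL11A2, the lowest, median and highest levels were 7.54, 8.24 and 9.19 with normal ALP (8.31 ± 0.59, SD, n = 9) and 7.15, 8.11 and 9.63 with increased ALP (8.30 ± 0.94, SD, n = 9). The increased ALP tumours held both extremes. The difference was −0.02 ± 0.35 (SE; 95% interval −0.74 to 0.71), with limma's adjusted p at 0.997 and an exact permutation p of 0.967.

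COL9A1 had its lowest, median and highest levels at 7.74, 8.12 and 9.23 with normal ALP (8.23 ± 0.43, SD, n = 9) and at 7.81, 8.17 and 10.54 with increased ALP (8.50 ± 0.86, SD, n = 9). The medians were close, and 4 of 9 increased ALP tumours lay above the normal mean. The difference was 0.27 ± 0.30 (SE; 95% interval −0.36 to 0.91), with limma's adjusted p at 0.905 and an exact permutation p of 0.460. Leaving out 1 array moved it to between 0.020 and 0.40, and the lowest value came without increased ALP replicate 6.

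The brighter COL10A1 probe set was at 5.08, 6.04 and 6.65 (lowest, median and highest) with normal ALP and at 4.91, 5.92 and 6.15 with increased ALP, and the groups overlapped throughout. Its difference was −0.21 ± 0.20 (SE; exact permutation p = 0.349). The dimmer probe set was at 4.39 ± 0.02 (SD, n = 9) with normal and 4.58 ± 0.49 (SD, n = 9) with increased ALP, a difference of 0.19 ± 0.15 (SE; exact permutation p = 0.0409, unadjusted and 1 of 7 such tests). Without increased ALP replicate 6 the difference was 0.025. The remaining probe sets of COL2A1 and COL11A2 gave exact permutation p-values of 0.994 and 0.672.

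**Figure D3:**
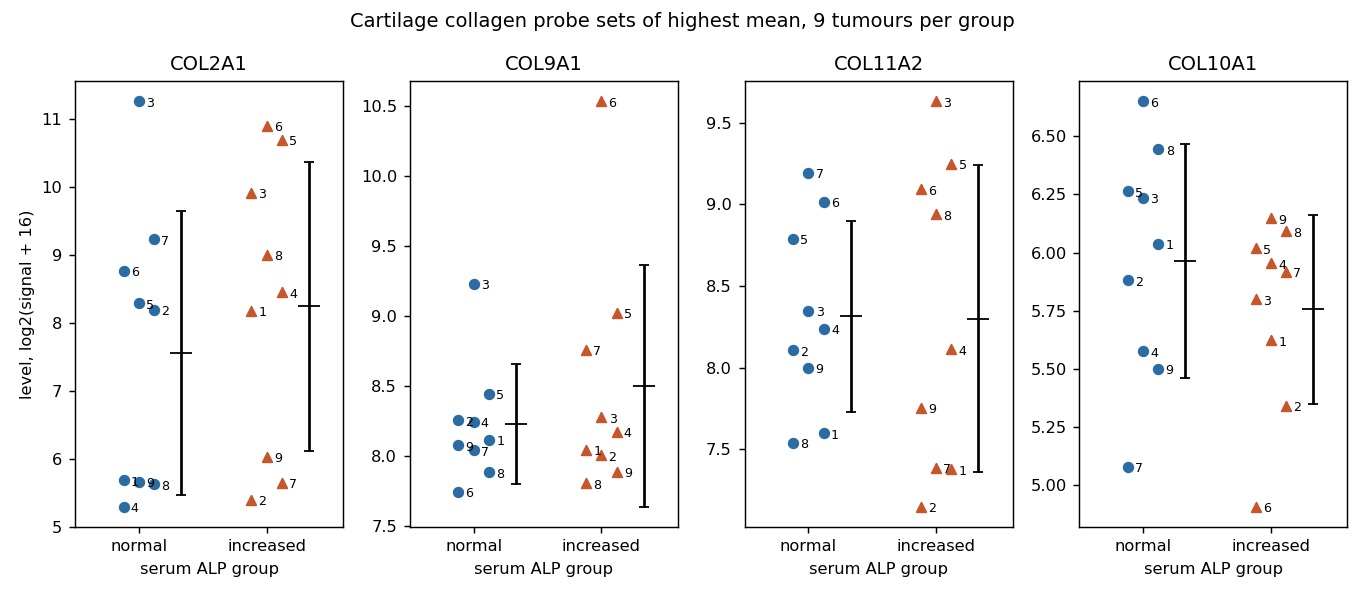
Levels of COL2A1, COL9A1, COL11A2 and the brighter COL10A1 probe set as log2(signal + 16), by serum ALP group, 1 numbered point per tumour (the replicate), with mean and SD beside each group of 9. The groups overlap in every panel, COL2A1 is split in both groups, and the y axes differ in range.

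**Figure D4:**
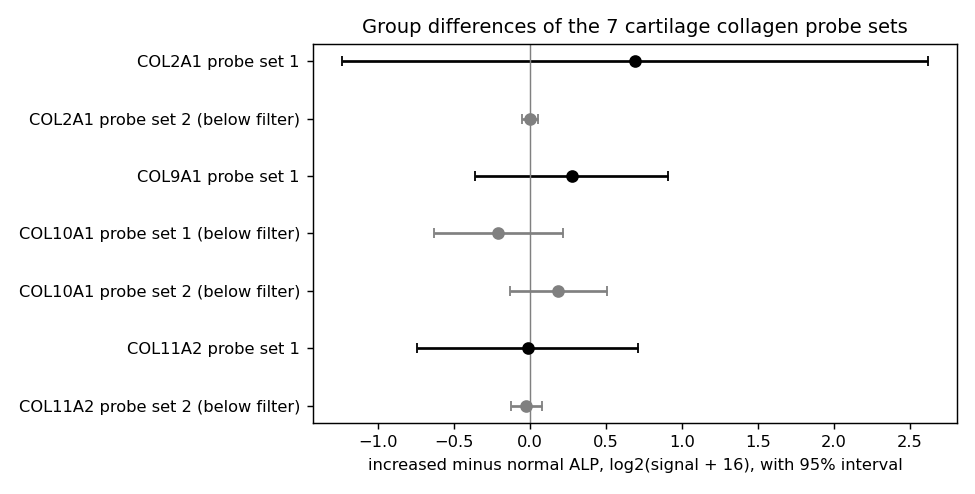
Difference between the serum ALP groups (increased minus normal, log2(signal + 16)) at the 7 cartilage collagen probe sets, with 95% intervals. Grey marks probe sets below the filter, whose intervals came from a separate fit without the filter. All intervals include 0, and that of COL2A1 is the widest, from −1.24 to 2.62.

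Of the measures of RNA quality, that of actin differed between the groups and that of GAPDH did not differ clearly. For GAPDH the 3' signal exceeded the middle one by 0.57 ± 0.10 with normal and 0.66 ± 0.14 with increased ALP. These values are in log2 units with SD (n = 9 each), and the exact permutation p was 0.128. The actin 3' signal exceeded that of the middle of the transcript by 1.39 ± 0.17 (SD, n = 9) with normal and 1.79 ± 0.29 (SD, n = 9) with increased ALP, in log2 units (exact permutation p = 0.00313). With this measure as a covariate the difference of COL2A1 was −0.95 ± 1.13 (SE) and that of COL11A2 was −0.64 ± 0.42 (SE), against −0.02 without it, and neither was called (limma's adjusted p = 1.0 for both). The sign of the COL2A1 difference thus depended on this term. The actin measure had a median of 1.42 (1.25 to 1.96) below the COL2A1 gap and a higher one of 1.66 (1.19 to 2.17) above it, and its part in the COL2A1 levels was not tested. Without increased ALP replicates 3 and 6, the arrays of high spike-in signal, the differences were 0.074 for COL2A1, 0.016 for COL9A1 and −0.32 for COL11A2, and none was called (limma's adjusted p = 1.0 for each).

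Other genes of cartilage gave no called difference either. Over 10717 genes at 1 probe set each, 5721 were higher and 4996 lower with increased ALP, with a median difference of 0.0128. Among cartilage proteoglycans and glycoproteins, 11 of 15 genes passed the filter, 3 higher and 8 lower, with a median of −0.07 and 0 called. ACAN, the large aggregating proteoglycan of cartilage, was at 10.18 ± 0.97 with normal and 9.30 ± 1.36 with increased ALP (SD, n = 9 each), a difference of −0.89 ± 0.52 (SE; limma's adjusted p = 0.844). COMP, a glycoprotein that binds collagen fibrils, differed by −0.44 ± 0.99 (SE). Of chondrocyte transcription factors, 4 of 5 passed the filter, 2 on each side, with a median of −0.07, and SOX9 differed by −0.30 ± 0.40 (SE). Among genes of hypertrophic cartilage and growth plate, 9 of 10 passed, 5 higher and 4 lower, with a median of 0.06. They include MMP13, the collagenase that cleaves type II collagen, with −0.59 ± 0.82 (SE).

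Genes that make, bind and degrade collagens gave no called difference. Of interstitial collagens, 13 of 14 passed the filter, 4 higher and 9 lower (median −0.03, 1 with an unadjusted p under 0.05), and COL1A1, the main chain of bone collagen, differed by 0.19 ± 0.25 (SE). Of collagen processing genes, 19 of 23 passed, 11 higher and 8 lower (median 0.02), and the prolyl hydroxylase subunit P4HB differed by 0.03. All 7 collagen receptors passed, 4 higher and 3 lower (median 0.09). The integrin chain ITGB1 was the receptor with an unadjusted p under 0.05, at −0.48 ± 0.22 (SE), and limma's adjusted p was 0.805. DDR2, a receptor kinase for fibrillar collagens including type II, differed by 0.51 ± 0.30 (SE). All 12 cartilage degradation genes passed, 5 higher and 7 lower (median −0.09).

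Markers of other cells that bulk tumour tissue can hold were given beside these results. All 7 endothelial markers and the 5 of 7 fat cell markers that passed the filter were higher with increased ALP, with medians of 0.33 and 0.59. Of fibroblast markers 6 of 7 were lower, with a median of −0.34. Among markers that passed the filter, those of skeletal muscle were higher at 2 and lower at 7 of 9 and those of osteoclasts at 1 and 4 of 5. Macrophage markers were higher at 5 and lower at 3 of 8 and osteoblast markers at 4 and 4 of 8, and no gene of any of these lists was called. Across the COL2A1 gap the mean level of the fibroblast markers had a median of 12.08 (10.87 to 12.33) below it and of 11.05 (10.74 to 11.93) above it, with overlapping ranges. The osteoblast markers had medians of 9.73 (7.14 to 10.69) below and 10.02 (7.68 to 11.13) above it, and the muscle markers of 6.68 (6.44 to 12.26) and 6.75 (6.34 to 10.61). Their part in the collagen levels was not tested.

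Co-variation among the cartilage collagens was seen in part of the tumours. Because COL2A1 fell into clusters, its correlations were taken within each cluster, and 9 relations between members were tested together, of which 1 passed. Among the 11 tumours above the gap, COL2A1 and COL9A1 had r = 0.75 (permutation p = 0.0054, adjusted p = 0.0486), with rho = 0.54 (p = 0.0946, adjusted p = 0.426). Without the tumours farthest from the median (replicate 3 of the normal and 6 of the increased ALP group), r was 0.55 and no longer passed. Without only the former it was 0.73 and without only the latter 0.75, and it did not pass in either case. Above the gap COL2A1 and COL11A2 had r = 0.47 (permutation p = 0.147, adjusted p = 0.352) and rho = 0.65 (p = 0.0333, adjusted p = 0.299), and r = 0.75 without both of those tumours. Normal ALP replicate 3 was the highest in COL2A1 and stood at only 8.35 in COL11A2. Within the 6 increased ALP tumours above the gap, both r were 0.80. The 5 normal ALP tumours there were fewer than the 6 asked for a correlation, and their COL11A2 levels, from lowest to highest COL2A1, were 8.11, 8.79, 9.01, 9.19 and 8.35. Among the 7 tumours below the gap the 3 relations with COL2A1 ran from r = −0.23 to 0.59, and 0 passed, at COL2A1 levels below the filter value.

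Over all 18 tumours none of the 3 relations among the other members passed. COL9A1 and COL11A2 had r = 0.29 (permutation p = 0.262, adjusted p = 0.472; rho 0.29, p = 0.247) and r = 0.15 without the farthest pair of tumours. COL9A1 and the brighter COL10A1 probe set had r = −0.39 (permutation p = 0.116, adjusted p = 0.352; rho −0.24) and −0.086 without that pair, which holds increased ALP replicate 6. COL10A1 and COL11A2 had r = −0.05 (permutation adjusted p = 0.912). Within the normal and the increased ALP group these 3 r were 0.0086 and 0.39, 0.034 and −0.65, and −0.16 and 0.016, in that order.

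**Figure D5:**
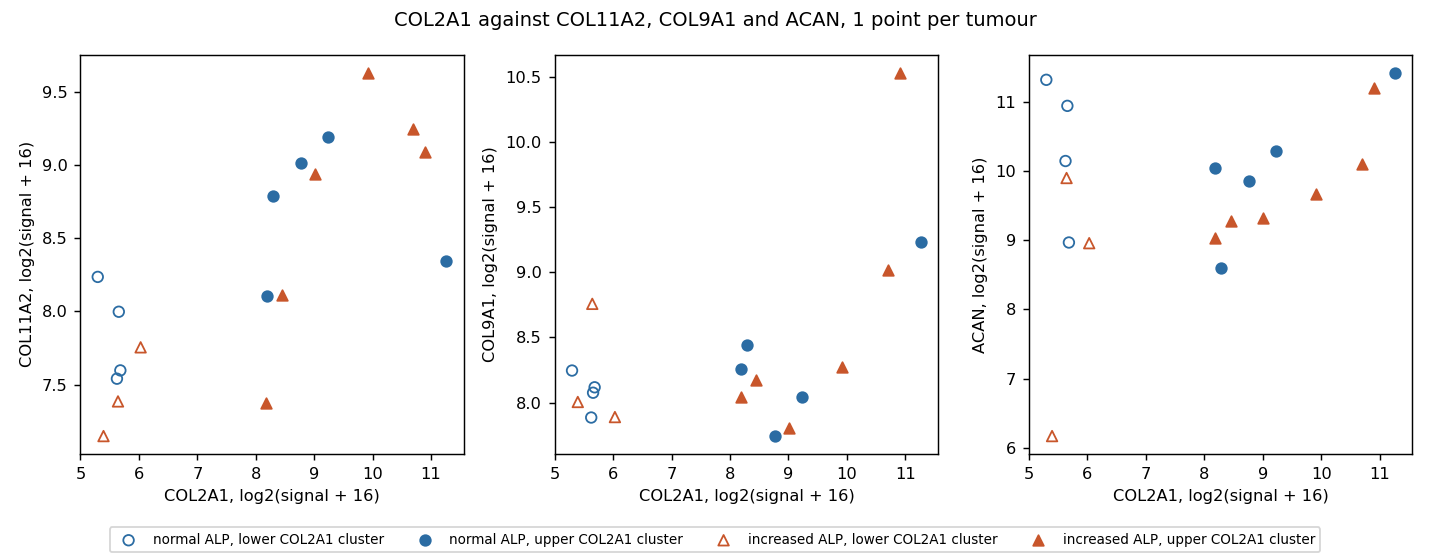
COL11A2 (left), COL9A1 (middle) and ACAN (right) against COL2A1, all as log2(signal + 16), 1 point per tumour, with open symbols below the COL2A1 gap. Above the gap ACAN and COL9A1 had r = 0.81 and 0.75 with COL2A1 (n = 11), COL9A1 being highest in increased ALP replicate 6 and COL2A1 in normal ALP replicate 3, while below it ACAN spans 6.17 to 11.33.

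ACAN was high in tumours at both ends of the COL2A1 range. It was at 11.33 in normal ALP replicate 4, the tumour of lowest COL2A1 (5.30), and at 11.43 in normal ALP replicate 3, the tumour of highest COL2A1 (11.26). SOX9 was at 8.17 in the former and 7.43 in the latter. It was at 8.68 in increased ALP replicate 7, also below the COL2A1 gap, where COL9A1 was high. In increased ALP replicate 2, by contrast, COL2A1, ACAN and SOX9 were all low, at 5.39, 6.17 and 6.15. Below the gap, SOX9 lay between 6.15 and 8.68, and above it between 6.39 and 8.75. The median of ACAN was 9.90 below and 9.86 above the gap. The mean level of 11 cartilage proteoglycans and glycoproteins had medians of 7.27 (6.92 to 8.51) below and 7.53 (6.89 to 9.15) above it. These ranges overlapped, so the lower COL2A1 cluster was not set apart by these other cartilage genes.

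Of 18 relations with genes of cartilage, hypertrophy and bone, 1 passed. Above the gap COL2A1 and ACAN had r = 0.81 (n = 11, permutation p = 0.00257, adjusted p = 0.0463) and rho = 0.77 (p = 0.00731, adjusted p = 0.132). Without the farthest pair of tumours r was 0.52 and no longer passed. COL2A1 and SOX9 had r = 0.39 there (permutation p = 0.234, adjusted p = 0.793). With COL1A1, the main chain of bone collagen, COL2A1 had r = 0.58 (permutation p = 0.0594, adjusted p = 0.534) and rho = 0.59. This r was 0.58 without the farthest pair too, so such co-variation was not seen with cartilage genes only. With MMP13, ALPL and COL5A2 the r of COL2A1 above the gap was −0.19, −0.24 and −0.05. Below the gap, at COL2A1 levels below the filter value, the 6 relations of COL2A1 lay between −0.40 and 0.46. COL10A1 had r between −0.37 and 0.27 with SOX9, ACAN, MMP13, ALPL, COL1A1 and COL5A2 over 18 tumours, the lowest permutation adjusted p being 0.793.

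The genes whose pattern was most like each collagen were ranked by Pearson r over the 18 tumours among 10714 genes, as a description, and the tumours share their RNA quality and tissue makeup across genes. For COL2A1 they were PTGDS, a prostaglandin D synthase (0.79), MSANTD2 (0.79), PHYKPL, an enzyme that breaks down phosphorylated hydroxylysine (0.78), TRAPPC3 of vesicle tethering (0.76), the calcium channel RYR2 (0.75) and YTHDC1, a reader of methylated RNA (0.74). Because COL2A1 is split by its gap, this r takes in differences across it as well as within clusters, and within the upper and the lower cluster it was 0.48 and 0.042 for PTGDS and 0.77 and −0.46 for MSANTD2. Cartilage genes ranked lower, with HAPLN1, the link protein of aggrecan, at place 113 (0.57), ACAN at 1234 (0.33) and SOX9 at 2641 (0.20). The cartilage glycoprotein genes CNMD and COMP stood lower still, at 3176 (0.16) and 3919 (0.10). For COL11A2 they were CHD4, a chromatin remodeller (0.85), FAM131C (0.84), PTGDS again (0.82), the kinase subunit CSNK2A1 (0.81), SYNGR1 (0.80) and the small GTPase ARF3 (0.80).

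For COL9A1 the most alike were COL17A1, a transmembrane collagen of epithelial attachment (0.91), ITIH3, a protein that binds hyaluronan (0.87), SPATC1L (0.86), the sodium channel subunit SCNN1D (0.86), LOC480186 (0.86) and LCN8 (0.84). Without increased ALP replicate 6 these fell to 0.71 for COL17A1, 0.57 for ITIH3 and 0.54 for SPATC1L. HAPLN1 stood at place 675, SOX9 at 808, ACAN at 1110, COMP at 2310 and CNMD at 3234 for COL9A1. For the brighter COL10A1 probe set the most alike were SAP130, a subunit of a histone deacetylase complex (0.79), SAFB (0.78), PIGG (0.77), ADI1 (0.77), the mitochondrial tRNA synthetase HARS2 (0.76) and ANAPC16 (0.76). SOX9 stood at place 9041 (−0.37). This COL10A1 probe set lay below the filter and was lowest in increased ALP replicate 6. Without that array r fell to 0.70 for SAP130, 0.68 for SAFB and 0.67 for PIGG.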

How the data were processed

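Each tumour's total RNA had been extracted with TRIzol and biotin-labelled for 1 Affymetrix canine array, per the labels' protocols. The deposited values are log2 signals per probe set, 1 array per column. The submitters' processing notes name MAS5, with no version or step, and the normalization between arrays is not given in the sources used here. Detection calls were not used, so dim probe sets, and the COL2A1 levels below the gap, may hold background. No array was left out, and no 2 arrays were duplicates (highest r 0.982). Precision is limited by 9 arrays per group.

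The 111 control probe sets of 43035 were set aside. Signals were taken back to the linear scale, 16 was added and log2 was taken. Of the other probe sets, 29254 carry 1 gene symbol in the platform annotation, 439 several and 13231 are not listed. Those with a mean below the 40th percentile (6.15) left the fit. The differences, SEs and intervals given for member probe sets below this filter came from a separate limma fit without the filter. That fit covered all 42924 probe sets other than controls. Groups, taken from the sample titles, were compared with limma 3.58.1 in R 4.3.3 (lmFit, eBayes with trend, two-sided, Benjamini-Hochberg over 25754 probe sets, threshold 0.05) and, per probe set, by exact permutation of the mean difference over 48620 splits. Correlations used 100000 permutations, or all of them under 10 tumours, adjusted within families of 9 and 18 relations. Tables were handled with pandas 2.3.3 and NumPy 2.4.6 in Python 3.11.15, tests run with SciPy 1.17.1 and plots drawn with matplotlib 3.10.9. The scripts were tested on simulated data.

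The text names all member probe sets, for each of COL2A1 and COL10A1 the 6 genes of highest r, and up to 3 members of highest mean per list. COL11A1 was planned too, and COL9A1 and COL11A2 were put in its place after seeing the data. A gene is read at its probe set of highest mean. The members and lists were chosen with earlier results of these data known. Alternatives were other offsets, filters and normalizations, array weights, eBayes without trend, a block for tissue number, quality measures as covariates and leaving out arrays.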

Additional observations from a re-analysis of the deposited data

Results flagged for a closer look

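There were 14 tests of a single tumour at the edge of its group (7 probe sets in 2 groups of 9). In 4 tests the tumour stood far from the others by Dixon's criterion for 9 samples, increased ALP replicate 6 in more than 1 of them. Chance alone sets apart about 1 in 20 groups. COL9A1 was at 10.54 in increased ALP replicate 6, with the nearest tumour at 9.02 (gap over range 0.554), and at 9.23 in normal ALP replicate 3, with the nearest at 8.44 (0.529). Both tumours were also high in COL2A1, at 10.90 and 11.26. The dimmer COL10A1 probe set was at 5.88 in increased ALP replicate 6, with the nearest at 4.48 (0.93), a tumour that also stood apart in spike-in signal. The dimmer COL11A2 probe set was at 5.62 in normal ALP replicate 7, with the nearest at 5.36 (0.607). What set these tumours apart was not tested.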

How the results depend on the processing

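No cartilage collagen was called under any of the 12 settings or with any array left out. The COL2A1 gap was recomputed, as a choice made after seeing the data, with other offsets and scalings and without arrays. It was narrowest at 1.58 with an offset of 64 and widest at 2.50 without increased ALP replicate 9, with the same tumours on each side each time. The group differences turned sign as follows, and the cause was not tested. With the actin covariate COL2A1 was at −0.95, its other probe set at −0.028, and the brighter and dimmer COL10A1 probe sets at 0.093 and −0.050. With the GAPDH covariate COL2A1 was at −0.079, its other probe set at −0.0045 and COL9A1 at −0.0045. COL11A2 was at 0.0060 with an offset of 64, 0.026 after quantile normalization, which put the other COL2A1 probe set at −0.018, and 0.029 after scaling to the 75th percentile. The dimmer COL11A2 probe set was at 0.0051 after that scaling and 0.0023 with array weights. Leaving out 1 array gave 0.36 to 1.16 for COL2A1, −0.011 to 0.012 for its other probe set, 0.020 to 0.40 for COL9A1, −0.18 to 0.13 for COL11A2, −0.041 to 0.012 for its dimmer probe set, −0.32 to −0.10 for the brighter and 0.025 to 0.21 for the dimmer COL10A1 probe set.

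Each correlation that passed was lost under several settings. COL2A1 with COL9A1 above the gap was at 0.55 without the 2 farthest tumours, 0.74 with group means removed, 0.78 without increased ALP arrays 3 and 6 and 0.72 with the actin measure removed. COL2A1 with ACAN was at 0.52, 0.78 and 0.81 without the 2 farthest tumours, without arrays 3 and 6, and with the actin measure removed. In each of these settings 0 relations of that family passed, in place of 1. Leaving out 1 array gave 0.73 to 0.78 (adjusted permutation p 0.0428 to 0.174, call lost for 10 of 11 arrays) and 0.72 to 0.88 (adjusted permutation p 0.0117 to 0.330, lost for 9 of 11), and 0 to 1 relations passing in each family. COL10A1 with COL11A2 turned to 0.34 without the 2 farthest tumours, 0.15 without arrays 3 and 6 and 0.12 with the actin measure removed. COL9A1 with COL10A1 turned to 0.063 without arrays 3 and 6, and COL2A1 with COL10A1 above the gap to 0.12 without those arrays and 0.015 with the actin measure removed. Leaving out 1 array moved these 3 between −0.18 and 0.099, −0.49 and 0.061, and −0.43 and 0.084. It moved COL9A1 with COL11A2 between 0.14 and 0.36, COL2A1 with COL11A2 above the gap between 0.35 and 0.69 and with SOX9 between 0.23 and 0.57. For correlations, arrays 3 and 6 were left out, and the actin measure removed, as choices made after seeing the data.

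The tissue numbers in the labels run from 1 to 9 in both groups. Same-numbered tumours did not deviate together (r from −0.164 to 0.27, over 0.1 in 4 of 9 pairs), and 0 arrays correlated best with their own number, so the numbers were not taken as pairs. With the number as a replicate block the differences were 0.69 for COL2A1, 0.27 for COL9A1 and −0.02 for COL11A2, and 0 probe sets were called (smallest limma adjusted p 0.0684). The mean over probe sets that passed the filter gave no value for COL10A1. Missing detection calls limit what can be said of the 4 dim probe sets and of the COL2A1 levels below the gap.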
